A study of Drosophila melanogaster with 3 samples.

Results

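The X chromosome held 1683 of the 9194 binding sites (18.3%) that chromatin immunoprecipitation and sequencing (ChIP-seq) found for the Drosophila melanogaster protein CG14710. These are the X entries of the authors' list of peaks that passed the irreproducible discovery rate (IDR) filter, which keeps peaks that rank alike across replicates, and they were chosen by chromosome alone. The material was whole embryos of both sexes, 0 to 14 hours old, from a transgenic line with GFP at the C-terminus of CG14710, and the sample description gives a GFP antibody for the precipitation, while the antibody label names CG14710. There was 1 group of 3 biological replicates, so X peaks were compared with the 7454 peaks on the autosomal arms 2L, 2R, 3L and 3R; the 57 peaks of chromosome 4 were left out. The labels do not say which promoter drives the tagged copy, and no line without the tag or with another target was analysed here. Coordinates are those of dm6, genes are those of RefSeq on the same assembly, and the signal of a peak is the authors' value, on a scale that these sources do not name.

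CG14710 belongs to the ZAD group of fly C2H2 zinc finger proteins, in which other members are known to bind promoters or chromatin boundaries. In flies, males have a single X and females a pair, and the male X is transcribed at a higher rate through the MSL complex, which is guided by the noncoding RNAs roX1 and roX2. X is also known for frequent short tandem repeats. A start site below is the first base of an annotated transcript (TSS), and a promoter is the stretch of 500 bp on each side of one.

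Windows of 101 bp around 10 X summits show the letters found at the strong sites and at the sex determination switch Sxl, 5′ to 3′ on the plus strand, from the RefSeq sequence of dm6. Capitals mark CACACTG, or its reverse complement CAGTGTG, together with GGTCACACT, TATCGATA, CAGGGCTG and GGTATTTT on either strand; GGTCACACT and CACACTG overlap where both are present. The first 5 windows and that of Sxl carry CACACTG, the next carries TATCGATA, and the spoon window carries CAGGGCTG and GGTATTTT. The CtsB and eIF4H1 windows are strong sites that hold none of these letters. The spoon window was picked for its letters after its value was seen. The others were taken from sites named by rule, and not all such sites are shown. CG3038, CG3918, CG2059 and Grip84, also among the strong sites, hold none of these letters and are left out. The windows therefore do not show how frequent the letters are.
PpV, chrX:6373057-6373157: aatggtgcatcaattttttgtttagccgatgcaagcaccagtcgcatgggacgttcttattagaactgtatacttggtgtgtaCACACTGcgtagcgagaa
mthl1, chrX:16640786-16640886: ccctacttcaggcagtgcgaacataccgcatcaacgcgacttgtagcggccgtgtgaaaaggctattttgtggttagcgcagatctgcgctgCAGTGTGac
unc-119, chrX:7291326-7291426: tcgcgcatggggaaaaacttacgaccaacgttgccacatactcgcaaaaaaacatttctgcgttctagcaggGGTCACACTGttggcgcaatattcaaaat
CG3224, chrX:6661469-6661569: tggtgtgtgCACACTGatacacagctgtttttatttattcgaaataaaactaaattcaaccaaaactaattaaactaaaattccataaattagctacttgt
CG42271, chrX:14234204-14234304: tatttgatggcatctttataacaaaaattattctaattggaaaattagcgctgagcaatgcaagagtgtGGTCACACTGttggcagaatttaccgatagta
CG11122, chrX:11124740-11124840: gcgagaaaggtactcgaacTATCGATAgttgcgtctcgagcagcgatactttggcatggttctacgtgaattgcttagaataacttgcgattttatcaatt
spoon, chrX:5420868-5420968: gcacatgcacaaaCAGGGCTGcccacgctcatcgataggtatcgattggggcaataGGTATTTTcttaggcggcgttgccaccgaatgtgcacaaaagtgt
CtsB, chrX:13782226-13782326: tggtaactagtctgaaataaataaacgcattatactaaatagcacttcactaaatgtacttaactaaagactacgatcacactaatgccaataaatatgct
eIF4H1, chrX:16448494-16448594: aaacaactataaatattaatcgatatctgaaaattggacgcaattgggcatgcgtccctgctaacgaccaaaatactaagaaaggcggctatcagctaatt
Sxl, chrX:7098129-7098229: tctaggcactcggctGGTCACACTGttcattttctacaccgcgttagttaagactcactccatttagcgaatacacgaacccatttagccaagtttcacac

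The 7-letter sequence CACACTG, which had been picked on the 100 strongest autosomal peaks, lay within 50 bp of the summit at 10 of the 21 strongest X peaks (47.6%, 95% Wilson interval 28.3% to 67.6%), with 1 of 21 in windows 500 bp away. On the autosomal arms it was at 5 of the 21 strongest (23.8%, 10.6% to 45.1%). Among the 100 strongest X peaks it was at 12 (7% to 19.8%), among the next 400 at 14 (3.5%, 2.1% to 5.79%) and among the remaining 1183 at 44 (3.72%, 2.78% to 4.96%). On the autosomal arms the counts were 28 of the 100 strongest, on which it had been picked, and 3.75% and 3.42% in the later groups. Groups of 21 and of 100 are not matched in strength, because X has 1683 peaks and the autosomal arms 7454. The X groups reach farther down the ranking: the 21st X peak ranked 100th of all peaks and the 92nd ranked 652nd. Windows 500 bp away from the summits of the X groups of 100, 400 and 1183 peaks held it at 1%, 1.25% and 1.18%, and 6.15% of X promoters (1 start site for each of 2196 genes) held it within 50 bp of the start. The intervals cover counting error only, because neighbouring peaks are not independent. The sequences ACACACT and ACACTGG were counted in the same groups. Each was at 4 of the 21 strongest X peaks and at 4 of the 21 strongest autosomal peaks. Among the 100 strongest they were at 4 and 5 on X, and at 20 and 21 on the autosomal arms. No factor is assigned to any of these letters here.

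Almost all of the strongest X peaks lay at promoters. Among the 20 X peaks that the 3 replicate lists placed highest by mean percentile, 19 had their summit in a promoter, 18 of them at or upstream of the nearest protein-coding start site, and 9 reached the start sites of 2 or more genes. The first was at CG3038 (chrX:245181-246535, summit 20 bp upstream), a promoter shared with G9a, which encodes a histone H3 lysine 9 methyltransferase. Its signal was 15890, 12244 and 15361 in replicates 1, 2 and 3 and 43441 in the pooled list, where it ranked 12th of all peaks. The replicates placed it at ranks 10, 11 and 15, so its position hardly moved.

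At PpV, the gene of a serine/threonine phosphatase (chrX:6372434-6373648), the signals were 14737, 10739 and 17474, at ranks 15, 20 and 10. The peak between mthl1, which encodes a receptor of the methuselah family, and the spliceosomal Sm protein gene SNRPG had signals of 13602, 12203 and 15988. CtsB, which encodes the lysosomal protease cathepsin B, had 11645, 10080 and 16224, a rise in rank from 29 and 26 to 12 in replicate 3. At eIF4H1, the gene of a translation initiation factor, the 3 values were 12241, 10448 and 13532. All 5 of these peaks were among the 25 with the highest pooled signal on any chromosome, and replicate 2 gave the lowest signal value at each. Whether signal has the same scale in each list is not known. By rank, replicate 2 placed PpV lowest, but mthl1 (ranks 19, 12 and 14) and eIF4H1 (25, 21 and 23) highest.

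The next X sites included 2 genes of the gamma-tubulin ring complex, which nucleates microtubules. Grip91 had signals of 8803, 7228 and 13451, and Grip84, whose promoter is shared with the vesicle trafficking gene car, had 4000, 4146 and 6914. Both were highest in replicate 3, also by rank (24 and 62), and 13 of the 20 peaks had their highest signal value there. The promoter of unc-119, which encodes a carrier of lipid-modified proteins, had 11354, 9130 and 10886. At the promoter shared by CG3224 and the copper transporter gene Ctr1A the values were 8624, 6922 and 8345. The proteasome ATPase gene Rpt3, in one promoter with CG11122, had 5423, 5598 and 9072, and the complex I gene ND-18, beside the exoribonuclease gene pcm, had 4375, 4485 and 4794. Where a promoter is shared, the peak cannot be given to one of its genes; Grip91 and unc-119 were the only protein-coding genes in reach of their peaks.

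Pooled signals of the remaining sites ran from 34260 at CG3918 down to 6655 at cib, the gene of an actin-binding protein. Between them were CG2059 (20574), CG42271 (12534), GlcAT-I (7693), whose enzyme acts in glycosaminoglycan synthesis, and CG5273 (6793). The gene dtn had 2 summits in 1 interval, at 10149 and 9378. No replicate ranked any of the 20 below 115 of its 30000 peaks, and 18 to 19 of the 20 stayed in the set when 1 replicate was left out of the mean.

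**Figure D1:**
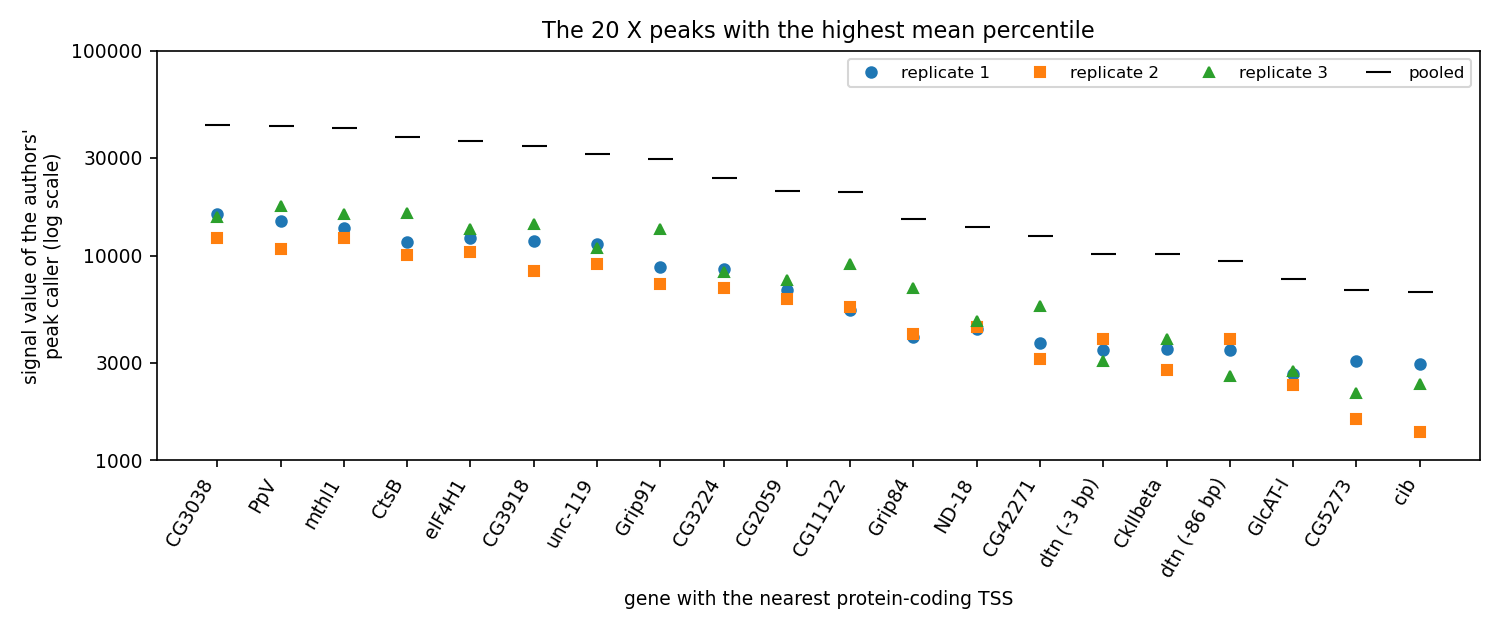
Signal of the 20 X peaks with the highest mean percentile, by gene with the nearest start site; circles, squares and triangles are replicates 1, 2 and 3, bars are the authors' pooled value, and the vertical axis is logarithmic. Pooled values run from 43441 at CG3038 to 6655 at cib. Replicate 2 is lowest at 15 of the 20 sites, in values for which a common scale across replicates is not known.

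The exception to the promoter pattern was CkIIbeta, which encodes the regulatory subunit of casein kinase 2. Its summit lay in the 3′ untranslated region (UTR), 4252 bp downstream of the nearest protein-coding start site (chrX:11796666-11797634). The signals were 3508, 2760 and 3919, at ranks 80, 85 and 80, with a pooled value of 10235. A further 2 weaker summits lay in the same 3′ UTR, at 478 and 389. The other X sites farthest up the ranking away from any start site were an exon of the noncoding gene lncRNA:Vinr, 770 bp from the nearest start site of any kind and with CG4004 as the nearest protein-coding one (1591, 1116 and 2458; pooled 5124), and an intron of CG32772 (1694, 1103 and 1887; pooled 4648). All 3 of these sites stood among the 133 strongest peaks of every replicate.

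X peaks lay in introns and 3′ UTRs more often than autosomal peaks, and in intergenic sequence less often. Introns held 546 of the 1683 X summits, 32.4% (95% Wilson interval 30.2% to 34.7%), against 24.5% on the 4 autosomal arms (arm range 21.8% to 27.0%; Fisher's exact test, two-sided, adjusted p = 1.46e-10). Intergenic sequence held 154 (9.15%, 7.86% to 10.6%) against 15.2% (exact test, adjusted p = 1.46e-10), although 2R was close to X at 9.97%. The 3′ UTRs held 31 (1.84%, 1.3% to 2.6%) against 0.617% (arm range 0.415% to 0.767%; exact test, adjusted p = 2.05e-05). Promoters held 930 (55.3%, 52.9% to 57.6%) against 58.4%, with an adjusted p of 0.0328 by the same exact test, but the arms themselves ran from 51.6% to 64.6%. The adjustment was that of Benjamini and Hochberg over 7 classes, and the p-values cover counting error only.

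The same differences were present in the 9194 strongest peaks of each replicate list. Intron shares on X exceeded those on the autosomal arms by 7.34, 5.67 and 8.78 percentage points, a mean of 7.26 ± 1.56 (SD, n = 3). For the intergenic share the X minus autosomal differences were -6.09, -5.28 and -7.62 points (-6.33 ± 1.19), and the 3′ UTR share was higher by 1.27, 1.18 and 0.966 points (1.14 ± 0.156). Each difference had 1 sign in all 3 replicates and exceeded its SD, while an exact two-sided sign-flip test over 3 replicates cannot go below 0.25. Promoter shares differed by -2.65, -1.44 and -2.07 points (-2.05 ± 0.605), and its call ended in each replicate list alone (adjusted p from 0.0935 to 0.484), without any 1 replicate (0.0529 to 0.286) and among the stronger 50% of peaks (0.358). Coding exons, 5′ UTRs and noncoding exons held 4, 8 and 10 X summits, and none of these 3 classes differed from the autosomal share by the Fisher test (adjusted p = 0.867 for each).

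**Figure D2:**
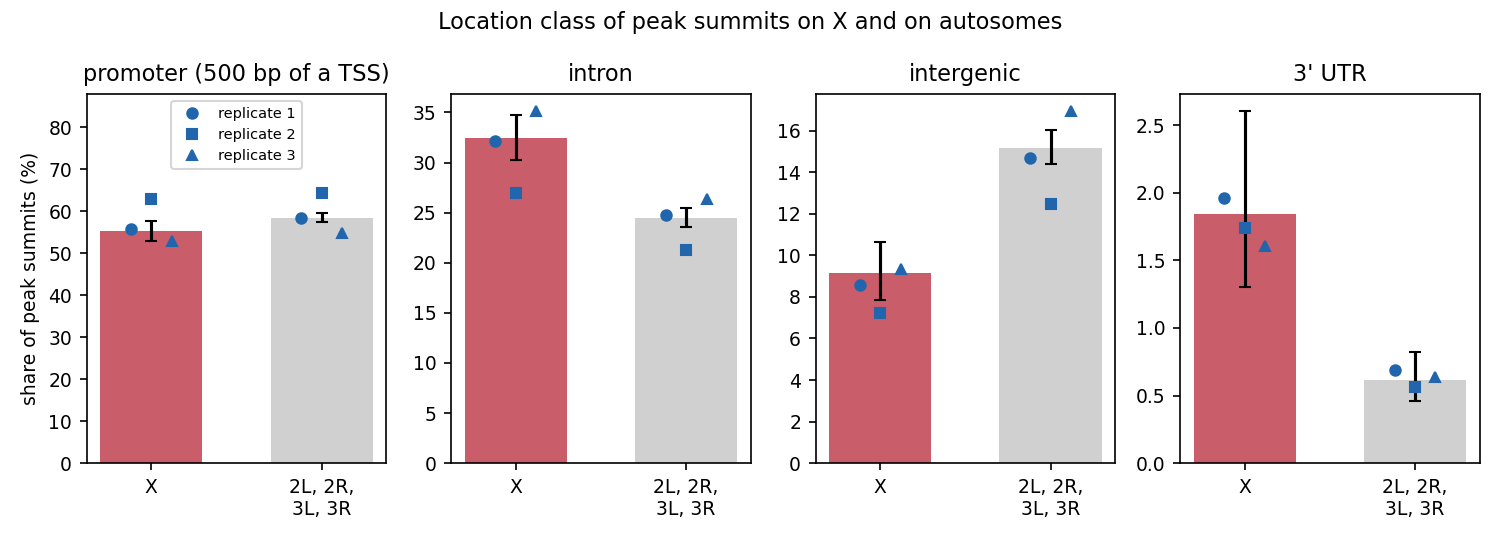
Share of peak summits (%) in promoters, introns, intergenic sequence and 3′ UTRs on X and on the 4 autosomal arms together; bars are the IDR list with 95% Wilson intervals, and points are the 9194 strongest peaks of each replicate list. The X intron share, 32.4% in the IDR list, exceeds the autosomal 24.5%, and each replicate's X point lies on the same side of its own autosomal point in all 4 panels.

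The sequence classes also took different shares of the chromosomes. Introns took 43.4% of X bases against 38.6% of autosomal bases, and 3.14% of X protein-coding genes were longer than 50 kb against 2.04% of autosomal ones. Per Mb of intron there were 53.5 X peaks, against 40.8 to 47.1 on the 4 autosomal arms. Per Mb of 3′ UTR there were 22.3 on X against 6.97 to 11.4, and per Mb of promoter 318 against 289 to 300. Intergenic sequence had 28.9 X peaks per Mb, inside the autosomal range of 22.5 to 48.5. X was thus above every autosomal arm per unit length in introns, 3′ UTRs and promoters, and not below them all in intergenic sequence.

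Intron peaks were spread over many genes, and a few long ones held the most. The 546 intron summits fell in 215 genes, of which 113 held 1 summit each. The immunoglobulin-domain adhesion gene kirre, which acts in myoblast fusion and spans 394 kb, held 31, with a highest signal of 2337. Next came the long noncoding RNA genes CR44357 with 17 and CR32773 with 13, the teneurin gene Ten-a with 12 and CG43658 with 12; together these 5 genes held 85. Shorter hosts with strong intron peaks were the Tousled-like kinase gene Tlk (9 peaks in 69.8 kb, highest 3966), the integrin gene mew (9 in 44.1 kb, 1731), CHES-1-like (9 in 27.1 kb, 2088) and the nuclear receptor gene Hr4 (8 in 66 kb, 3117). Median signals of X intron and X promoter peaks were 474 and 564, and 59.9% and 72.6% of them were among the 9194 strongest peaks of all 3 replicates.

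The 31 summits in 3′ UTRs fell in 27 genes. Apart from CkIIbeta, those with a pooled signal over 1000 were at CG7872 (1167), Hr4 (1027) and CG4004 (1012). Gap junction gene Inx2 held 2, at 532 and 371, and the others included the netrin gene NetB (507) and the kinase gene sgg (268). In all, 20 of the 31 were among the 9194 strongest of every replicate, and the weakest had a signal of 265. Genes on the 2 strands overlap at several of these sites, so the host is the gene whose annotated UTR spans the summit, not a shown target.

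A larger share of X genes than of autosomal genes had a peak at the promoter. Of 2196 protein-coding X genes, 1030 (46.9%, Wilson interval 44.8% to 49.0%) had a promoter summit, no farther than 500 bp from a start site, where 42.7% of protein-coding genes on all arms did. The share was 41.8% on the autosomal arms, from 40.8% on 2L to 42.2% on 3R, so X was higher by 5.07 points (two-sided Fisher's exact test, p = 1.2e-05). In the replicate lists, cut to their 9194 strongest peaks, the difference was 2.81, 4.01 and 6.56 points, a mean of 4.46 ± 1.91 (SD, n = 3; exact sign-flip p = 0.25, the smallest possible). X genes had more start sites, 1.51 per gene against 1.39; among genes with 1 start site the shares were 39.6% and 36.4%, a difference of 3.19 points (exact test, p = 0.0179). Counting only the stronger 50% of peaks turned the direction, with 28.0% of X genes and 29.3% of autosomal genes bound (exact test, p = 0.201). Chromosome 4, left out of these comparisons, had 39 of its 80 protein-coding genes bound in the IDR list (48.75%, Wilson interval 38.1% to 59.5%).

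**Figure D3:**
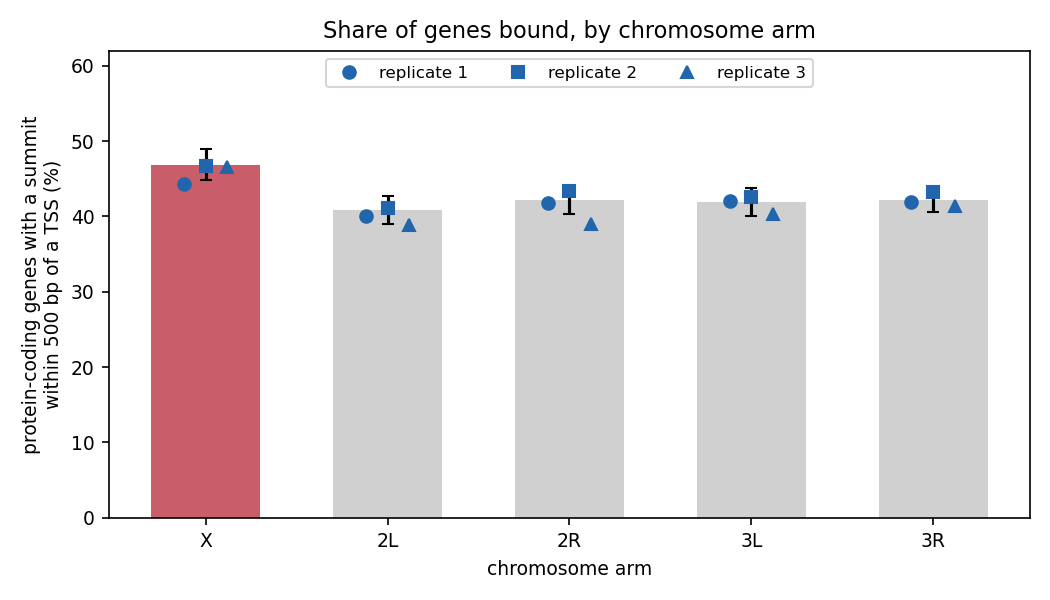
Share of protein-coding genes (%) with a summit within 500 bp of a start site on each chromosome arm; bars are the IDR list with 95% Wilson intervals and points the 9194 strongest peaks of each replicate list. X stands at 46.9% and the 4 autosomal arms between 40.8% and 42.2%, and the X point of each replicate lies above that replicate's autosomal points.

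Most X genes of protein synthesis and respiration were bound, beside 46.9% of all X genes. All 15 cytosolic ribosomal protein genes of X were bound, against 69 of 77 on the autosomal arms, with a median signal at the promoter of 928 beside 636 over all bound X genes. The highest were RpL22 (682.7, 545 and 590 in replicates 1 to 3; pooled 1830) and RpS10b (529.5, 501.9 and 765.6; pooled 1778). Mitochondrial ribosomal protein genes were bound in 9 of 11 cases (55 of 62 on the autosomal arms), led by mRpL16 (327, 256.6 and 368.3; pooled 944) and mRpL22 (pooled 608), and oxidative phosphorylation genes in 12 of 13 (50 of 75), led by ND-18 and ND-24 (585.9, 374.8 and 726.2; pooled 1704). SdhBL was the member without a peak, its nearest summit lying 744 bp away. These lists and all others here were chosen with earlier results of these data known, so their counts describe and do not test.

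Among 7 X translation factor genes 4 were bound, against 33 of 46 on the autosomal arms. For the proteasome the counts were 4 of 6 and 26 of 42, for the nuclear pore 5 of 6 and 19 of 20, and for the cell cycle 4 of 5 and 31 of 35. The share over all X genes was 46.9%, and no test was run on these few members. The bound translation factor genes were eIF4H1, eIF2alpha (1225, 937.9 and 1046; pooled 3208), eIF5 (692.7, 533.8 and 1397; pooled 2660), whose peak is shared with the homeobox gene exd, and eIF2Bepsilon (pooled 682). The initiation factor genes eIF2Bbeta and eIF3g1 had their nearest summits 682 and 1371 bp away, at the promoters of Ugalt and Smyd3, and eIF4E7 had none within 27254 bp. The bound proteasome genes were Rpt3, Rpt4 (pooled 898), Prosalpha4 (748) and Rpt6 (508). The 2 others, Rpn13R and Prosbeta2R1, lay 12102 and 30975 bp from a summit. Among nuclear pore genes, Nup205 (904), Elys (824), Nup153 (480), Aladin (425) and Nup93-1 (419) were bound and Nup35 was not. Cell cycle genes were bound at Mcm6 (pooled 750), Cdk7 (725), CycD (581) and Cdc45 (457), while the helicase gene Mcm3 had its nearest summit at 1108 bp.

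Both X genes of the Mediator complex, MED22 and MED18, and both of the vacuolar ATPase, Vha36-3 and VhaAC39-1, had no promoter peak. On the autosomal arms 24 of 26 Mediator genes and 18 of 31 vacuolar ATPase genes were bound. The nearest X summits lay 7169, 3966, 1722 and 12102 bp away. With 2 X genes per list, beside a share of 46.9% over all X genes, the counts were not tested.

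Of 6 X genes of X dose and sex determination 2 were bound, beside 46.9% of all X genes. Both autosomal members of that list were bound, and their median signal of 24785 was far higher. Sxl, whose product switches on female development and is itself set by X dose, had a summit 126 bp upstream of a start site with signals of 411.9, 331 and 298.6 (pooled 1050), and its window holds GGTCACACT. The splicing factor gene snf, which acts with Sxl, had 287.2, 156.8 and 284.2 (pooled 725), at a promoter shared with Cdk7. The X-linked dose signal genes sc, sisA, upd1 and run were not bound, with nearest summits at 18476, 2997, 48694 and 27444 bp. The acetyltransferase gene mof of the MSL complex had 105, 96.9 and 75.6 (pooled 274), close to the lowest X signal of 263. The noncoding genes roX2 (204.8, 137.9 and 126.9; pooled 475) and roX1 (121.4, 78.8 and 69.1; pooled 299) had summits 31 and 39 bp from a start site. Replicate 3 gave the lowest value at Sxl, mof and both roX genes, and roX1 and mof fell outside the 9194 strongest peaks of that replicate.

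Developmental genes differed from list to list. Of 14 X neural genes 10 were bound, led by elav, which encodes a neuronal RNA-binding protein (1363, 979.1 and 1141; pooled 3461), and by the adhesion gene sdk (502.3, 324.8 and 560.5; pooled 1382); rut, para, Sh and nAChRalpha7 were not. None of the 6 autosomal neural genes of the list was bound. Over all X genes the share was 46.9%, and over X genes with 2 or more start sites 63.0%. The neural counts were not tested. Among segmentation and patterning genes, arm (26.2, 77.8 and 92.1; pooled 285) and oc (96.2, 79.7 and 115.2; pooled 299) were bound at low signal, and gt, btd and run were not. Of the 16 autosomal members of that list 3 were bound. All 4 genes of the achaete-scute complex, ac, sc, l(1)sc and ase, lacked a promoter peak, with nearest summits at 7779, 18476, 4815 and 2756 bp.

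The X members of 3 lists of genes with late or tissue-restricted expression had no promoter peak, where 46.9% of all protein-coding X genes had one. This held for the 8 yolk and chorion genes, Yp1, Yp2, Yp3, Cp36, Cp38, Cp7Fa, Cp7Fb and Cp7Fc, whose nearest summits lay 2498 to 15120 bp away. It held as well for the 8 cuticle protein genes, Cpr5C, Cpr11A, Cpr11B, Cpr12A, TwdlX, TwdlY, TwdlZ and Twdlalpha, and for all 25 chemosensory receptor genes. On the autosomal arms 0 of 128 cuticle and 2 of 154 chemosensory receptor genes were bound.

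Peaks were spread along X with about the density of the other arms. X had 71.7 IDR peaks per Mb against 68.5 on the autosomal arms (arm range 65.1 to 72.0), a ratio of 1.05 (two-sided exact binomial test, p = 0.0921). The ratio was 0.971, 0.994 and 1.10 in the replicate lists, a mean of 1.02 ± 0.0667 (SD, n = 3), so its direction differed between replicates. It was 0.901 among the stronger 50% of peaks (exact test, p = 0.00897) and 1.06 with summits of 1 interval counted once (p = 0.0292). Without replicate 1 it was 1.07 (exact test, p = 0.0263). X had 93.5 protein-coding genes per Mb and the autosomal arms 107.

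In the 23 full bins of 1 Mb, X counts ran from 14 to 104 with a median of 79, against 0 to 132 with a median of 75 in 108 autosomal bins, of which 14 held 10 or fewer peaks. The densest X bins were 7 to 8 Mb with 104 peaks, where unc-119 was strongest, 6 to 7 Mb with 102, led by PpV, and 17 to 18 Mb with 101, led by a 5′ UTR summit of the polarity gene baz (1323, 740.1 and 1246; pooled 3300). The sparsest lay next to the centromere, with 14 peaks at 22 to 23 Mb (strongest at wap, pooled 692), 31 at 21 to 22 Mb (bves, 2452) and 33 at 20 to 21 Mb (mal, 1031). Between DIP1 and CG14621, 813 kb (chrX:21631721-22444649) held 21 protein-coding genes and no IDR summit.

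Promoter peaks were most frequent in bins with many genes, and intron peaks much less so. Over the 23 bins, which share libraries and gene content, Spearman's rho with the number of protein-coding genes was 0.872 for promoter peaks and 0.198 for intron peaks; over the 108 autosomal bins it was 0.842 and 0.41. The bin from 3 to 4 Mb had 95 peaks with 55 genes, and 59 of its peaks were in introns. The bin from 14 to 15 Mb had 37 peaks with 88 genes, of which 23.9% were bound. In contrast, the bin from 6 to 7 Mb had 61.3% of its 111 genes bound.

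**Figure D4:**
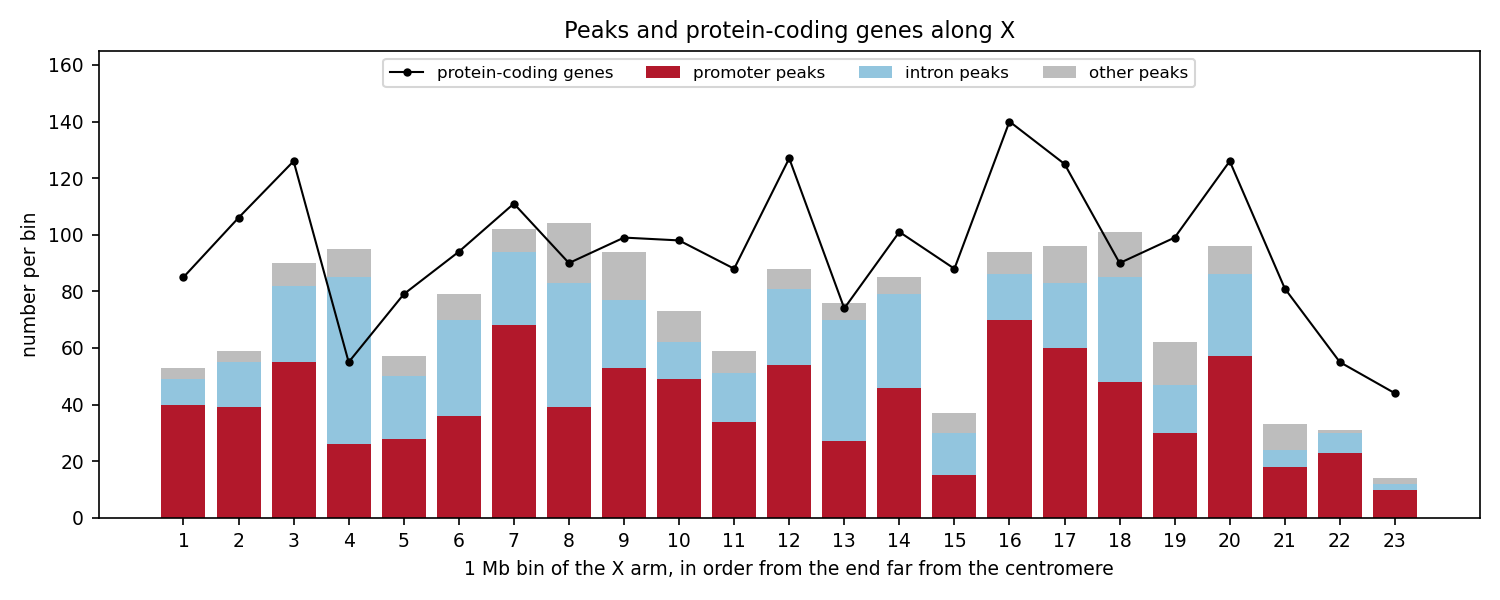
Number of peaks in each of the 23 full 1 Mb bins of X, in order from the end far from the centromere, stacked by location class, with protein-coding genes as a black line. The 4th bin has 59 intron peaks and 55 genes, and the last 3 bins before the centromere hold 33, 31 and 14 peaks.

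X peaks had lower signal than autosomal peaks, while no difference was detectable among the very strongest. Among the 100 strongest IDR peaks 21 were on X (21 of 1683 X peaks, 1.25%, against 1.06% of autosomal peaks; two-sided Fisher's exact test, p = 0.516). From rank 101 to 500 the X share of peaks was 45 of 400, with a Wilson interval of 8.52% to 14.7%, and from rank 5001 to 9194 it was 20.2% (19.0% to 21.4%). Overall 7.96% of X peaks and 10.5% of autosomal peaks were in the 10% with the highest signal, a difference of -2.53 points (exact test, p = 0.00164), and 44.2% and 51.4% were in the stronger 50% (p = 1.2e-07). Within 500 bp of a start site the shares in the top 10% were 9.03% and 12.8% (exact test, p = 0.0013), and farther away 6.64% and 7.29% (p = 0.582); whether the 2 differences differ was not tested. Because whole embryos were used, fewer cells with a bound site and weaker binding per cell cannot be told apart, and neither can a lower number of X copies in a mixed-sex sample, since no input coverage was analysed here.

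The location of X peaks varied with rank. Of the 45 X peaks at ranks 101 to 500, 51.1% were at promoters and 37.8% in introns, whereas the autosomal peaks of those ranks were 70.9% at promoters and 19.5% in introns. This was the widest gap of any rank range and was not tested: promoter shares on X and the autosomal arms were 62.7% and 65.5% at ranks 501 to 1000, 70.6% and 70.1% at 1001 to 2000, and 60.3% and 62.7% at 2001 to 5000. Among the 100 strongest peaks, promoters held all but 1 of the 21 X peaks, the one at CkIIbeta. X peaks were narrower (median 349 bp against 392 bp) and had a lower median signal (504 against 560), and 337 of them reached 2 or more genes, -3.35 points from the autosomal share of 23.4% (exact test, adjusted p = 0.0056). Fewer were within 100 bp of a start site, 25.9% against 30.4% (exact test, adjusted p = 0.000476). The autosomal arms ran from 20.4% to 25.3% for 2 or more genes and from 26.7% to 35.1% for the 100 bp share. Arm 3L was the lowest of them in both and was close to X. The share in soft-masked repeats was 21.6% against 22.4% (exact test, adjusted p = 0.557). Adjustment was over a family of 11 such shares, each by a two-sided Fisher's exact test.

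Over all IDR peaks, X ranked lower in each replicate but not to the same degree. Median percentiles of X and autosomal IDR peaks were 82.5 and 85.4 in the list of replicate 1, 82.1 and 85.0 in replicate 2, and 84.3 and 85.1 in replicate 3. The differences of -2.87, -2.86 and -0.80 points had a mean of -2.18 ± 1.19 (SD, n = 3; exact sign-flip p = 0.25, the smallest possible). In replicates 1 and 2 X was below all 4 autosomal arms, and in replicate 3 it was above 2R at 84.0. Among promoter peaks the differences were -2.87, -2.17 and -2.37 points, and among the others -2.14, -1.91 and 0.497, so the direction turned in replicate 3 away from start sites.

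**Figure D5:**
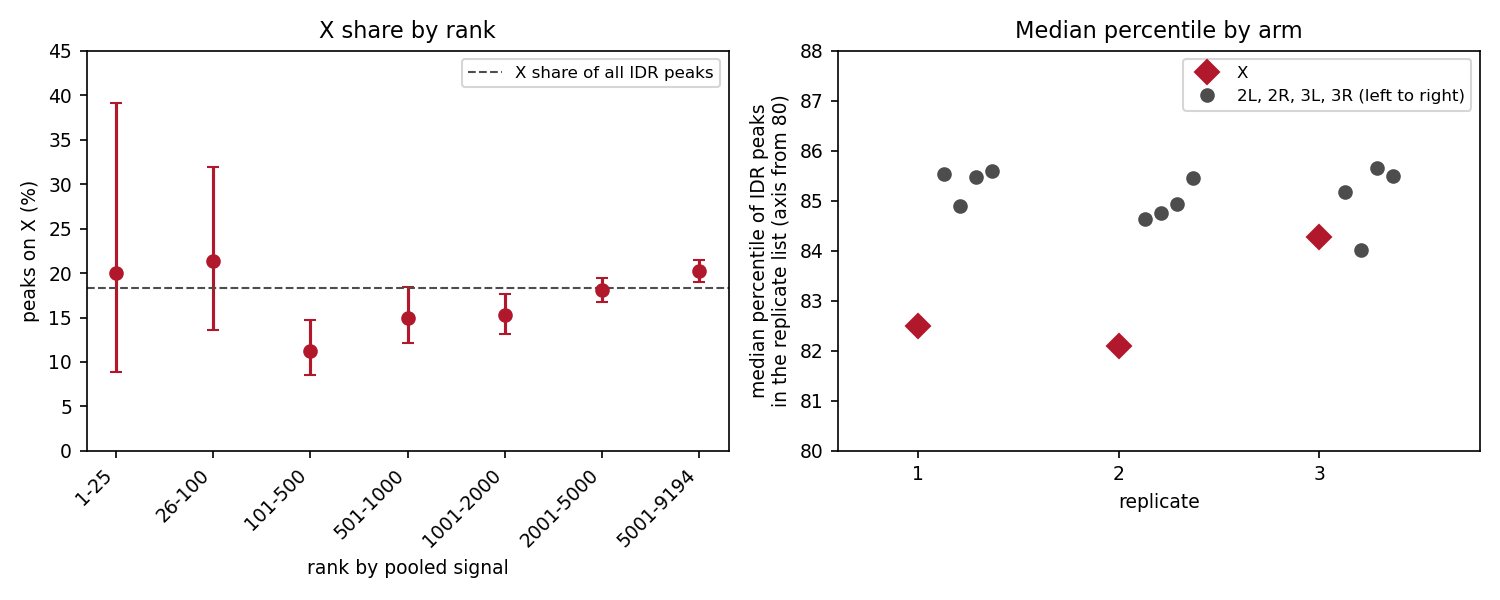
Left, share of peaks on X (%) by rank of the pooled signal, with 95% Wilson intervals and a dashed line at the X share of all IDR peaks, 18.3%. Right, median percentile of the IDR peaks of each arm in each replicate list, on an axis that starts at 80; X lies below the autosomal arms in replicates 1 and 2 and between them in replicate 3.

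How often replicates held X peaks among their strongest depended on the replicate. Among the 9194 strongest peaks of all 3 replicates were 1109 X peaks (65.9%, Wilson interval 63.6% to 68.1%) and 65.4% of autosomal peaks (two-sided Fisher's exact test, p = 0.733). With 50% as many peaks per replicate the shares were 29.6% and 34.0% (exact test, p = 0.00058), and with 2 times as many they were 93.5% and 89.2% (p = 2.26e-08), so the sign turned with the depth of the list. X peaks were among the strongest of replicate 1 less often than autosomal ones (85.2% against 88.2%), likewise in replicate 2 (81.7% against 83.1%), and more often in replicate 3 (88.5% against 84.6%). Without replicate 3 the shares in both remaining lists were 74.1% and 77.1% (exact test, p = 0.00897). Peaks of replicates 1 and 2 that were missing from the strongest of replicate 3 were 8.2% of X peaks and 11.7% of autosomal peaks (exact test, adjusted p = 8.75e-05, over the same 11 shares), and those in replicate 3 alone were 7.01% and 5.35% (adjusted p = 0.0158).

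Rank agreement between replicates had similar values on X and on the autosomal arms. Over the peaks found in both lists of a pair, Spearman's rho was 0.826 for 1631 X peaks and 0.84 for autosomal peaks between replicates 1 and 2. It was 0.73 and 0.723 between replicates 1 and 3, and 0.687 and 0.688 between 2 and 3. These peaks were selected with the replicate and pooled lists, so the values are not independent of that choice. Of the 1683 X peaks, 1590 had a peak over the summit in all 3 replicate lists. X made up 17.2%, 17.5% and 19.0% of the 9194 strongest peaks of replicates 1, 2 and 3, and 18.5% to 18.7% of the full lists of 30000.

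Several known promoter motifs were more frequent at X summits than beside them, a contrast that was not tested. The DNA replication-related element TATCGATA lay within 50 bp of 5.29% of X summits and 4.2% of autosomal summits, with 0.297% in X windows 500 bp away. The core promoter sequence GGTCACACT was at 2.44% and 2.59%, GGTATTTT at 2.08% and 2.68%, and CAGGGCTG at 0.832% and 1.14%. In the X windows beside the summits these were at 0.0594%, 0.594% and 0.0594%. The tested sequences CACGTG and CAGGTAG went the other way, at 0.594% and 0.297% of X summits and 0.891% and 0.772% of the windows beside them. None of the 10 motifs tested differed between X and the autosomal arms (two-sided, Fisher's exact test, adjusted over 10; TATCGATA, adjusted p = 0.333), and 0 had an unadjusted p under 0.05. In the strongest peaks of the replicate lists TATCGATA was higher on X by 1.11, 1.75 and 1.12 points, which passed in replicate 2 (exact test, adjusted p = 0.0308) and not in replicates 1 and 3 (0.197 and 0.135). Arm 2R was nearest to X, at 5.16% in the IDR list. In the replicate lists 2R was at 5.02%, 5.04% and 4.31%, where X was at 5.12%, 6.03% and 4.52%. Within 100 bp of the summit TATCGATA was at 8.97% and 6.9% (exact test, adjusted p = 0.0181) and the TATA box sequence TATAAA at 34.2% and 38.1% (adjusted p = 0.0181). All X promoters showed differences of the same direction, with TATCGATA at 6.69% against 4.82% and TATAAA at 13.2% against 17.7% within 50 bp of a start site. They held GGTCACACT, CAGGGCTG and GGTATTTT at 4.37%, 1.23% and 2.1%, none lower than at X summits. Among X promoter peaks alone the shares were 4.3%, 1.29% and 3.01%, and 9.03% for TATCGATA. Whether X summits exceed X promoters in general was not tested.

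Of 3 simple repeats that were more frequent on X than on the autosomal arms, 2 were rarer at X summits than beside them, as they were on the autosomal arms. The dinucleotide run CACACACA occurred 996 times per Mb of X and 491 times per Mb of the autosomal arms, and it lay in 5.88% of X windows 500 bp from a summit against 2.87% of autosomal ones. At the summits themselves it was at 1.07% and 1.27%. For GAGAGAGA, which resembles the purine-rich sequence that the MSL complex recognizes, there were 227 and 119 sites per Mb. It was held by 0.297% of X summits and 0.47% of autosomal summits, with 1.31% and 0.885% in the windows beside them. TATATATA, at 642 and 291 per Mb, was at 2.85% and 2.28% of summits. Both on X and on the autosomal arms TATATATA was more frequent at summits than beside them (1.78% and 1.27%) in the IDR list. In the replicate lists its X shares were 3.16%, 2.05% and 2.63% at summits and 2.34%, 2.175% and 2.29% beside them. The direction on X thus turned in replicate 2. Occurrences of a run that overlap were each counted, both strands were searched, and a window without these letters says nothing about the protein that would bind them.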

How the data were processed

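The 3 replicates were deposited as narrowPeak lists of 30000 peaks each, with a pooled list of 30000 and the IDR list, made by the authors on dm6. Per the text files that came with the samples, each replicate list came from that replicate's alignments and 1 control file, and the IDR list from the replicate and pooled lists. For aligner, peak caller and IDR threshold no name or value is given in the sources used here, read depth is unknown, and the precision of the intervals is that of peak and gene counts only. Peak signal is the authors' deposited value and was used to rank or describe peaks within a list. Where values of different replicates are set side by side, a common scale is not known. The −log10 q value deposited by the authors was not compared. In 2 to 17 lines per list the summit, also deposited as an offset, lay outside its interval.

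Chromosome decided membership. Summits were assigned to promoters (500 bp on each side of any RefSeq start site), coding exons, 5′ UTRs, 3′ UTRs, noncoding exons, introns or intergenic sequence, in that order, with 17683 genes and 23265 start sites. A gene was bound when a summit lay within 500 bp of one of its start sites. An IDR peak took each replicate's value from the replicate peak with the nearest summit among those that cover it; list positions beyond 30000 are unknown. Percentiles are within a replicate's own list. X was set against 2L, 2R, 3L and 3R by two-sided Fisher's exact or exact binomial tests on counts, which treat neighbouring peaks and genes as independent, and by exact two-sided sign-flip tests over the 3 replicates, with a threshold of 0.05 and Benjamini-Hochberg adjustment within each family. Intervals are 95% Wilson intervals. Motifs were searched on both strands in windows of 101 bp, against windows 500 bp to a seeded side.

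Named sites were the 20 X peaks with the highest mean percentile, the 2 highest bound X members of each of 17 gene lists and every X member of lists with 10 or fewer, the strongest peak of the 3 densest and 3 sparsest bins, and the 3 highest X peaks away from start sites; hosts of intron and UTR peaks and a motif example were named after their values were seen. The members, gene lists, motifs and tests were chosen with earlier results of these data known. The noncoding roX genes were matched by their RefSeq names after the first count. Alternatives were other windows, list sizes, replicates left out, arms without the 2 Mb next to the centromere and chromosome 4 included. The tests were checked on simulated data with planted differences. The tools were scipy 1.17.1, pandas 2.3.3, numpy 2.4.6 and matplotlib 3.10.9 under Python 3.11.15.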

Additional observations from a re-analysis of the deposited data

How the results depend on the processing

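Of 96 recomputed values, 74 were counted as unchanged, among them all 33 for the X intron, intergenic and 3′ UTR shares (these 33, and the settings on histone genes, 1 start site, distance from start sites, the replicate peak taken and the top 20, were chosen after seeing the data). For most this meant the same direction and side of the threshold. For 1 motif count and 3 top 20 counts it meant an equal or similar count. For the 7 median percentile values only the direction could change, because 3 replicates cannot pass the threshold. The promoter difference of -3.17 points was past the threshold with windows of 250 and 1000 bp, without centromere-proximal sequence and with chromosome 4. It was not among the stronger 50% of peaks (-2.44), in the lists of replicates 1, 2 and 3 alone (-2.65, -1.44 and -2.07) or without 1 replicate (-3.3 to -2.17). The density ratio fell to 0.901 in that 50% and to 0.971 and 0.994 in replicates 1 and 2 alone, and passed as higher in replicate 3 alone (1.10), with summits of 1 interval counted once (1.06) and without replicate 1 (1.07, exact binomial p = 0.0263); without 1 replicate it was 1.01 to 1.07. The bound gene difference reversed to -1.38 points in the same 50%, was 2.98 to 5.02 without 1 replicate and 4.66 without the 111 histone genes, and was past the threshold in every setting but the reversed one. The share in all replicates differed by 3.04 points in that 50%, -4.38 and 4.35 points with 50% and 2 times as many peaks, and -3.03 to 1.81 points without 1 replicate. The deficit among the 10% strongest was 0.188 points in the other direction for the 100 strongest and -0.653 points away from start sites. The median percentile difference stayed negative (-2.87 to -1.83 without 1 replicate). The number of motifs that differed was 2 with windows of 100 bp on each side and 1 among promoter peaks (TATAAA, 17.0% against 21.3%, exact test, adjusted p = 0.0274). Leaving out a replicate used an IDR list made from all 3, and in each case the cause was not tested. The sign-flip tests paired X with autosomal values within each replicate; there was no second group to pair.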
